A study of Homo sapiens with 6 samples.

Results

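The genes of the ATF4 integrated stress response and of the serine pathway that it serves were examined in Kasumi-1 cells. The set was a fixed list of 35 gene symbols, and all 35 were found among the 29810 genes of the deposited table. Of these, 31 had a mean level of at least 0.5 FPKM over the libraries and were tested. ASNS, PYCR1, CBS and NUPR1 lay below that minimum, and they are described by their levels. FPKM is the number of fragments of a gene scaled to its length and to the counted fragments of the library.

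Kasumi-1 is a human acute myeloid leukemia (AML) line with the t(8;21) translocation, which joins RUNX1 to RUNX1T1. The 3 libraries of the control group came from cells without the compound, which received the vehicle DMSO, and the 3 libraries of the I3 group from cells given 0.25 μM I3, an inhibitor of histone deacetylases. Both groups were incubated for 48 h by the labels, whereas a figure legend gives a longer time, and the deposited table is titled with I13 in place of I3. The control libraries held 17663213, 17798678 and 17500321 reads as rebuilt from the FPKM values, and the I3 libraries held 17818415, 17794814 and 18193372. The labels number the samples of a group but do not tell whether they were separate cultures, so the p-values below measure only the spread between these samples. All come from 1 cell line.

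The identity of the cells was checked first with cell type markers. All 10 markers of the t(8;21) myeloid blast were above the minimum, and their summed level lay between 12220 and 14700 FPKM over the 6 libraries, most of it MPO, the granule peroxidase. Of the 5 monocyte markers listed only CSF1R was above the minimum, with a summed level of 3.92 to 5.84 FPKM, and S100A8 was at 0 in all libraries. None of the 4 T cell markers listed reached the minimum, and their summed level was 0.234 to 1.15 FPKM. The B cell list had CD79A, CD79B and PAX5 above it, at a sum of 7.21 to 8.41 FPKM. CD79B was lower in the I3 libraries at an unadjusted p of 0.0185 in limma (log2 fold change -0.33, adjusted p = 0.868), CD79A had a log2 fold change of 0.36, and their part in the values of the pathway was not tested. The erythroid list had only EPOR, at a sum of 2.23 to 3.07 FPKM, and the epithelial or fibroblast list only EPCAM, at a sum of 28.2 to 31.6 FPKM, with KRT18 at 0. The ranges of the control and I3 libraries overlapped for each of these sums.

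In the integrated stress response, kinases that sense amino acid shortage, misfolded protein in the endoplasmic reticulum or heme shortage phosphorylate the alpha subunit of the initiation factor eIF2. General translation then slows, while the messenger of the transcription factor ATF4 is translated more. ATF4 binds with C/EBP partners and turns on genes for amino acid import, asparagine, serine and proline synthesis and the mitochondrial arm of folate metabolism, together with DDIT3, TRIB3 and CHAC1 in longer stress. Because ATF4 is controlled largely through translation, its mRNA level is no measure of its protein. In leukemia cells the pathway is known as a response to amino acid depletion and to drugs that disturb protein folding.

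ATF4 and its C/EBP partners bind a composite element, TGATGNAAN, in which N is any base. It was searched on both strands in windows from 250 bases before to 50 after each start in RefSeq (GRCh38.p14), and 29 of the 35 genes matched a window there. Those without one are PSPH, SHMT2, NUPR1, EIF2AK1, PYCR1 and SLC7A11. The element was found in 8 of the 29 genes, against 4.45% of all 27305 genes with a window. By window it was in 10 of the 47 of these genes, against 3.61% of all 35116, and the single MTHFD1L site counts in several windows. The list was drawn up around ATF4, so its share is no independent test. The shorter core TGATGCAA, which lies within the same letters, was found in 5 of the 29 genes (CHAC1, MTHFD1L, PPP1R15B, SLC1A4 and SLC1A5), against 1.08% of all genes. The 8 sites are shown because they hold the letters that an ATF4 complex is known to bind, on the strand of the gene, with the 9 bases of the match in capitals. In CHAC1, SLC1A4 and SLC3A2 the element stands on the other strand, and the capitals give its reverse complement.
ASNS: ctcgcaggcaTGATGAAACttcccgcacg
ATF3: aaggtcaggaTGATGGAAGgctgtcatat
CHAC1: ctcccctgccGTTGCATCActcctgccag
MTHFD1L: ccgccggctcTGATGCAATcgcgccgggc
PPP1R15B: ccgccccggcTGATGCAACctcacgctgc
SLC1A4: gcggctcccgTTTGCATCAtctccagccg
SLC1A5: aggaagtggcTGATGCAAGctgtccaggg
SLC3A2: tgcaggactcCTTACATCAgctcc

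The sites printed lie at chr7:97872458-97872486 (minus strand, ASNS), chr1:212565206-212565234 (plus, ATF3), chr15:40953251-40953279 (plus, CHAC1), chr6:150866347-150866375 (plus, MTHFD1L), chr1:204412026-204412054 (minus, PPP1R15B), chr2:64989381-64989409 (plus, SLC1A4), chr19:46784893-46784921 (minus, SLC1A5) and chr11:62881725-62881748 (plus, SLC3A2). Counted from the start, the match begins at -68 in ASNS, -191 in ATF3, -210 in CHAC1, -227 in PPP1R15B, -8 in SLC1A4, -97 in SLC1A5 and 37 in SLC3A2, where a minus sign means before the start. MTHFD1L has 1 site that falls into the windows of 3 alternative starts, at -129, -90 and 25. A match is a description of letters, and binding was not measured.

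**Figure D1:**
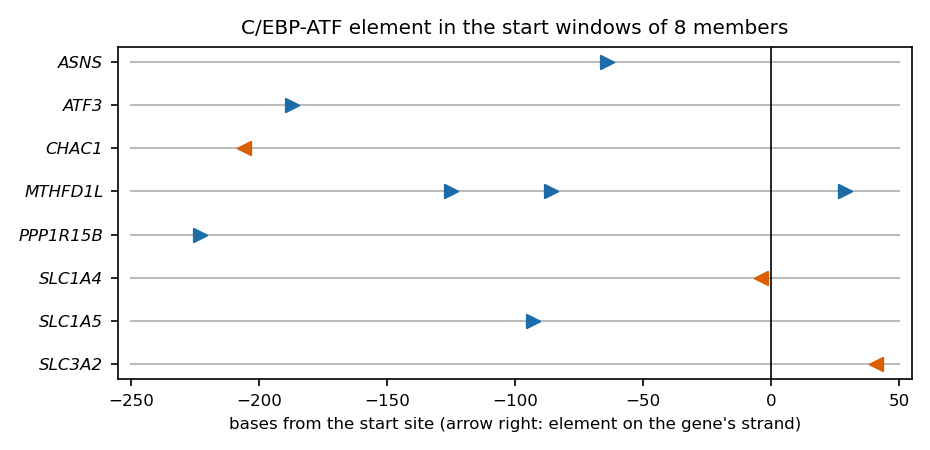
Position of the element TGATGNAAN in bases from the annotated start (0) in the windows of the 8 genes that hold it, with arrows to the right for the strand of the gene and to the left for the other strand. The 3 arrows of MTHFD1L are 1 site seen from 3 starts, at -129, -90 and 25.

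Levels differed far more between the genes than between the libraries. Per base of exon, ATF4 was the highest of the 35, with a mean of 165 FPKM over the 6 libraries, which is the 99.4 percentile of all listed genes. It was followed by ALDH18A1 (58.4 FPKM), which makes the precursor of proline, and SLC1A5 (51.0 FPKM), the neutral amino acid carrier that takes up glutamine. At the lower end, NUPR1, a stress-induced chromatin protein, was listed at 0 in all 6 libraries. The sum over the 11 transcription factors and stress effectors was 226, 221 and 212 FPKM in the control libraries and 207, 204 and 193 FPKM in the I3 libraries, and ATF4 alone made up most of it.

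**Figure D2:**
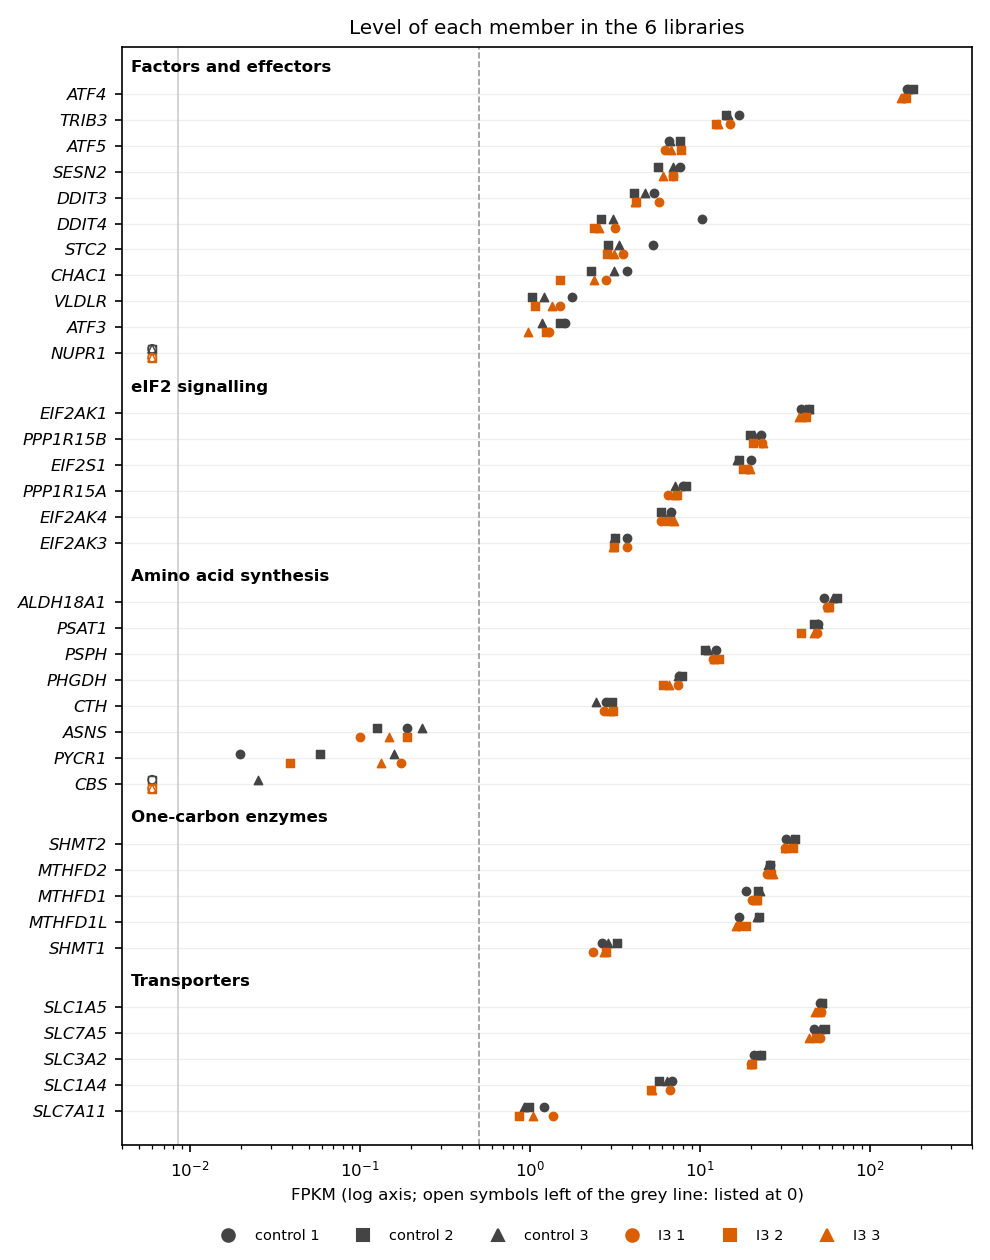
FPKM of each of the 35 genes (log axis) in 3 control libraries (grey) and 3 I3 libraries (orange), grouped by role and sorted by mean level. The dashed line is the minimum of 0.5 FPKM, and open symbols at the left are values of 0. ASNS, PYCR1, CBS and NUPR1 lie below the line, and control replicate 1 of DDIT4 stands apart at 10.3 FPKM.

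Whether I3 changed the pathway was asked with limma over all 12960 genes that reached the minimum. No gene was called at an adjusted p of 0.05 with a log2 fold change of 0.58 (0%), and none of the 31 tested genes of the pathway was. Their adjusted p (limma, Benjamini-Hochberg) was at least 0.998, and the smallest over all genes was 0.309. At an unadjusted p under 0.05, 1 of the 31 was lower in the I3 libraries (SLC3A2), against 2.85% of all tested genes, and 0 were higher, against 2.08%. With the fold threshold added, 0 of the 31 were higher and 0 lower, against 0.756% and 0.648% of all tested genes. limma's voom on rebuilt reads called 0 genes at the adjusted p too, with 0 of the 31 higher and 2 lower at an unadjusted p (MTHFD1L and PHGDH), beside 2.15% and 2.72% of all genes in that fit. All 3 I3 values lay below all 3 control values in 3 of the 31 (ATF4, PHGDH and SLC3A2), against 4.64% of all tested genes, and all 3 above in 0 of the 31, against 5.06%. Without control replicate 1 the count of 3 became 10, beside 12.1% of all tested genes in that setting, and without I3 replicate 1 it became 8, beside 8.54%.

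The median log2 fold change of the 31 genes was -0.07, beside 0.01 for all tested genes, and 23 of the 31 (74.2%) had an estimate below 0, beside 45.8% of all. The median log2 deviation of the 31 from their own means was 0.066, 0.0073 and 0.029 in control replicates 1, 2 and 3. It was 0.011, -0.024 and -0.085 in I3 replicates 1, 2 and 3, so the groups overlapped. All 31 genes were read from the same libraries, so their signs are not independent. The 95% interval lay wholly inside a log2 fold change of ±0.58 for 28 of the 31 (90.3%), beside 81.6% of all tested genes, and the exceptions were DDIT4, CHAC1 and STC2. An interval of this kind bounds a change in 1 gene and is not adjusted for the number of genes. In bulk RNA, fewer cells that use a gene and less RNA per cell cannot be told apart.

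**Figure D3:**
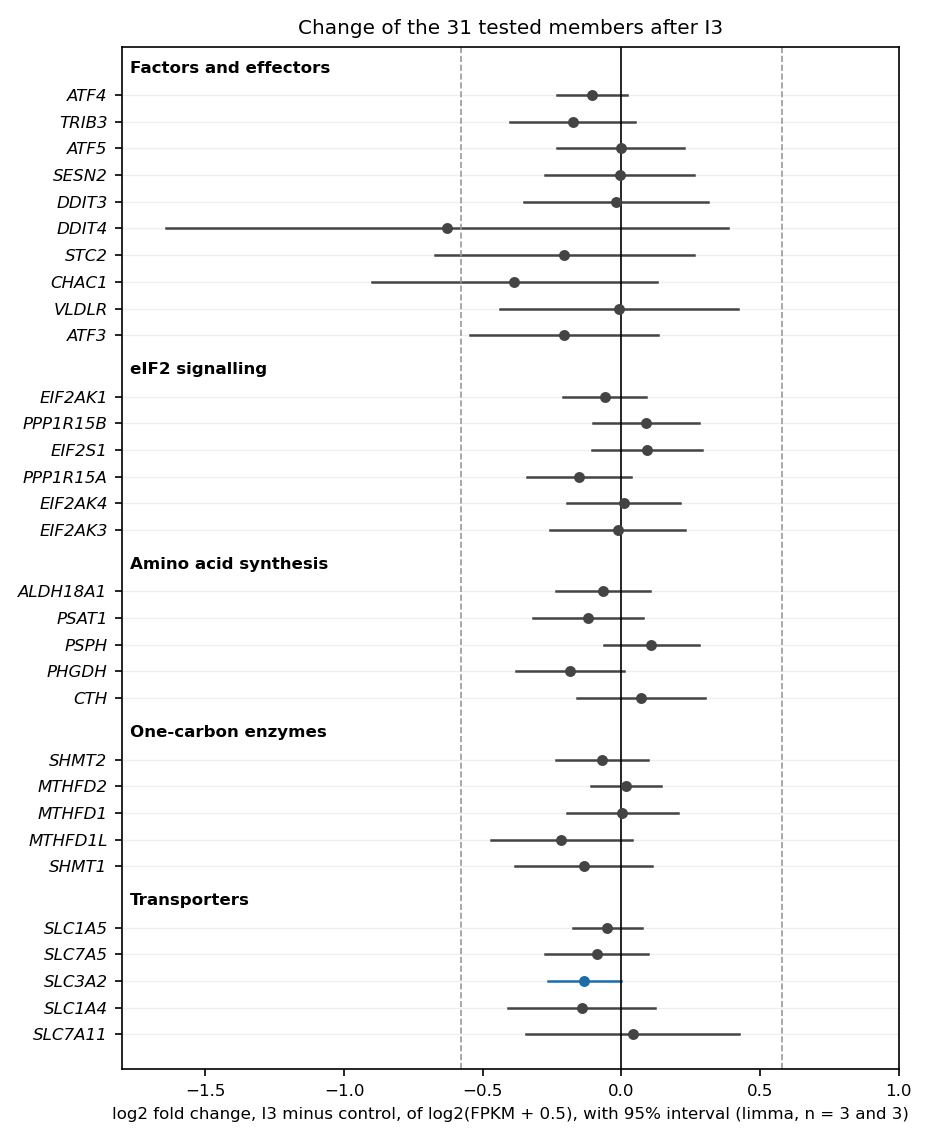
log2 fold change (I3 minus control, of FPKM with a pseudocount of 0.5) of the 31 tested genes with its 95% interval from limma, n = 3 and 3 libraries, grouped by role. The solid line is 0, the dashed lines are ±0.58, and SLC3A2 (blue) is the gene at an unadjusted p under 0.05. The intervals of DDIT4, CHAC1 and STC2 reach beyond a dashed line.

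The transcription factors and stress effectors had a median log2 fold change of -0.14, and all 10 tested had an estimate below 0, although none passed the test. Without control replicate 1 the median was -0.05 and 6 of the 10 were below 0, since DDIT3, SESN2, VLDLR and STC2 then had estimates above 0. ATF4 (chr22:39519695-39522685, plus strand, GENCODE 29) was at 167, 179 and 167 FPKM in the control libraries and at 160, 164 and 152 FPKM in the I3 libraries. Every I3 library was thus below every control library, but the gap between the nearest of them was narrow. The log2 fold change was -0.11 (SE 0.053, 95% interval -0.23 to 0.02), with an unadjusted p of 0.0857 in limma. A two-sided exact permutation test gave p = 0.1, the smallest that 3 against 3 allows. After GC correction the log2 fold change of ATF4 was -0.09, with an unadjusted p of 0.0469 and an adjusted p of 0.844 in limma. ATF4 was also among the steadiest genes, since its SD within groups ranked at the 8.82 percentile of all tested genes.

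DDIT3, which encodes the stress factor CHOP, was at 5.37, 4.13 and 4.78 FPKM in control and at 5.76, 4.22 and 4.17 FPKM in I3. The groups overlapped, the highest library was 1.40 times the lowest, and the log2 fold change was -0.02 (95% interval -0.35 to 0.31). Exons of genes on the other strand cover 31.6% of its exon bases (MARS and MBD6), and its values do not correspond to whole reads of the annotated length. The kit keeps the strand of the RNA, but the sources used here do not say whether the counting used it.

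TRIB3, a pseudokinase that restrains ATF4, was at 16.9, 14.3 and 14.6 FPKM in control and at 15.1, 12.5 and 12.8 FPKM in I3 (log2 fold change -0.18, 95% interval -0.40 to 0.05). CHAC1, which degrades glutathione, was at 3.71, 2.29 and 3.11 FPKM in control and at 2.81, 1.50 and 2.38 FPKM in I3 (log2 fold change -0.39, 95% interval -0.90 to 0.13). In both genes the groups overlapped, and replicate 1 was the highest library of each group. With 1 library left out the log2 fold change ran from -0.26 to -0.10 in TRIB3 and from -0.55 to -0.18 in CHAC1. TRIB3 was at an unadjusted p under 0.05 without I3 replicate 1, and CHAC1 without control replicate 2. ATF3, a factor induced downstream of ATF4, ranged from 0.980 to 1.61 FPKM and ATF5, a related factor, from 6.27 to 7.80 FPKM. SESN2, which holds back mTORC1 when leucine is short, ranged from 5.65 to 7.61 FPKM, and VLDLR, a lipoprotein receptor, from 1.03 to 1.78 FPKM.

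DDIT4, an inhibitor of mTORC1 that also answers to hypoxia, had the only estimate past the fold threshold, and it is described here after its values were seen. It was at 10.3, 2.62 and 3.08 FPKM in control and at 3.16, 2.40 and 2.56 FPKM in I3. A single library, control replicate 1, stood high, and the other 5 lay between 2.40 and 3.16 FPKM. The log2 fold change was -0.63 (95% interval -1.64 to 0.38), and it was -0.07 without control replicate 1. An antisense gene, DDIT4-AS1, covers 41.2% of its exon bases. STC2, a secreted glycoprotein, had the same library highest, at 5.34 FPKM in control replicate 1 and 2.85 to 3.55 FPKM in the other 5, and its log2 fold change moved from -0.21 to 0.03 without it.

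Control replicate 1 was the highest of the 6 libraries in 7 of the 10 tested factors and effectors (ATF3, DDIT4, TRIB3, CHAC1, SESN2, VLDLR and STC2), beside 22.9% of all tested genes. In ATF3, CHAC1, SESN2 and VLDLR it lay above the next library by less than the SD within groups of the gene. ATF4 was highest in control replicate 2, ATF5 in I3 replicate 2 and DDIT3 in I3 replicate 1. Over all 31 tested members, control replicates 1 and 2 were each the highest in 11, beside 22.9% and 19.7% of all tested genes. The median deviation of the 10 genes from their own means was 0.24 on the log2 scale in control replicate 1, and it was between -0.16 and 0.05 in the other 5 libraries. Over all tested genes the corresponding median in control replicate 1 was 0.02. The SD within groups had a median of 0.186 for these 10 genes, 0.108 for the other 21 tested members and 0.124 for all tested genes. It ran from 0.0544 in ATF4 to 0.705 in DDIT4 among the 10, and from 0.0448 in MTHFD2 to 0.189 in SLC7A11 among the 21, so the ranges overlapped. The libraries also differed in how the level of a gene varied with its GC content, with rank correlations over 12939 genes of -0.313, 0.446 and 0.337 in control replicates 1, 2 and 3 and of -0.232, 0.262 and -0.446 in I3 replicates 1, 2 and 3. The part of GC content in the high values of control replicate 1 was not tested.

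**Figure D4:**
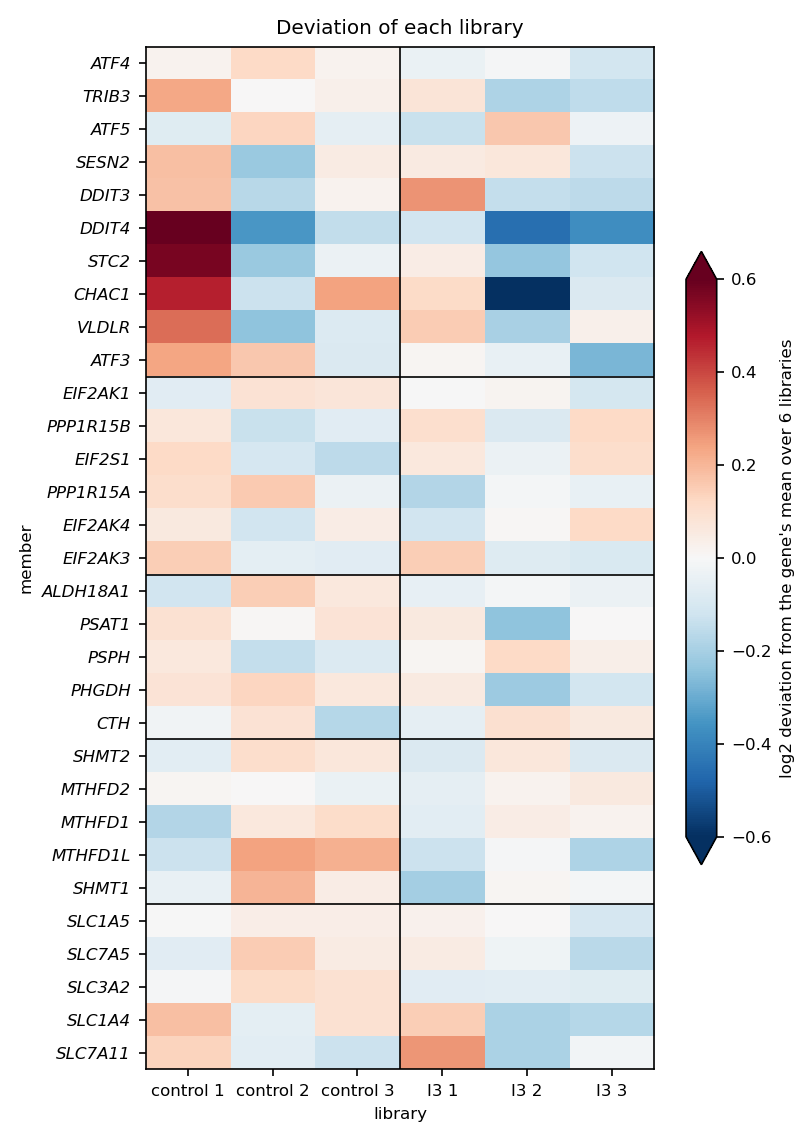
Deviation of each library from the mean of the gene over the 6 libraries (log2 scale, red above and blue below, colors ending at ±0.6) for the 31 tested genes in the order of their roles, from factors and effectors at the top through eIF2 signalling, amino acid synthesis and one-carbon enzymes to transporters. The red column at the top left is control replicate 1, which was the highest library in 7 of the 10 factors and effectors.

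Upstream, the genes of eIF2 signalling showed a median log2 fold change of -0.0025 (-0.04 to 0.05 with 1 library left out), with 3 of the 6 below 0 and 3 above. EIF2AK1, the heme-regulated kinase, was the most abundant of the eIF2 kinases at 38.5 to 44.1 FPKM. It was followed by EIF2AK2 (PKR), the sensor of double-stranded RNA from the further list of eIF2 genes, at 7.90 to 11.9 FPKM, EIF2AK4 (GCN2), the sensor of uncharged tRNA, at 5.93 to 7.05 FPKM and EIF2AK3 (PERK), the kinase of the endoplasmic reticulum, at 3.09 to 3.73 FPKM. These ranges per base of all exons did not overlap. Per base of the principal transcript EIF2AK4, at 12.9 to 15.3 FPKM, lay above EIF2AK2, at 8.46 to 12.7 FPKM, in all 6 libraries, while EIF2AK1 was still the highest and EIF2AK3 the lowest. EIF2S1, the alpha subunit that they phosphorylate, lay between 16.5 and 20.0 FPKM. Within a library EIF2AK1 was 12.6 times EIF2AK3 on average (10.6 to 13.9), and EIF2AK4 was 1.96 times EIF2AK3 (1.59 to 2.29). When the level was set per base of the principal transcript in place of all exons of the gene, these ratios were 13.4 and 3.64.

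PPP1R15A (GADD34), the inducible subunit that directs a phosphatase to eIF2 alpha, was at 7.98, 8.28 and 7.19 FPKM in control and at 6.48, 7.30 and 7.14 FPKM in I3. The I3 values were on the whole lower, but I3 replicate 2 lay above control replicate 3. The log2 fold change was -0.15 (SE 0.080, 95% interval -0.34 to 0.03, unadjusted p = 0.0943 in limma). With 1 library left out it ran from -0.21 to -0.10, and PPP1R15A was at an unadjusted p under 0.05 without control replicate 3. PPP1R15B, the constitutive subunit with the same task, was higher, at 19.8 to 23.7 FPKM, and it exceeded PPP1R15A by 2.71 ± 0.280 times in control (SD, n = 3) and by 3.24 ± 0.409 times in I3 (SD, n = 3), with ranges of 2.39 to 2.89 and 2.80 to 3.61 that overlapped.

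In amino acid synthesis the serine branch was well expressed, and none of its 3 enzymes passed the adjusted test. PHGDH, the first and committed enzyme of serine synthesis, was at 7.58, 7.85 and 7.48 FPKM in control and at 7.42, 6.06 and 6.56 FPKM in I3. The 3 I3 values were the lowest, but I3 replicate 1 lay just below the lowest control. The log2 fold change was -0.18 (SE 0.083, 95% interval -0.38 to 0.01, unadjusted p = 0.0607 in limma, two-sided exact permutation p = 0.1), and it ran from -0.26 to -0.12 with 1 library left out. PHGDH was at an unadjusted p under 0.05 without I3 replicate 1. PSAT1, the transaminase of the second step, ranged from 39.5 to 49.9 FPKM and had a log2 fold change of -0.12 (95% interval -0.32 to 0.08, and -0.18 to -0.03 with 1 library left out).

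PSPH, the phosphatase that releases serine, was at 12.4, 10.7 and 11.2 FPKM in control and at 11.9, 12.9 and 12.2 FPKM in I3. Its estimate had the opposite sign, with a log2 fold change of 0.11 (SE 0.073, 95% interval -0.06 to 0.28, unadjusted p = 0.183 in limma), and the groups overlapped, with control replicate 1 above I3 replicates 1 and 3. With 1 library left out it ran from 0.06 to 0.17. ALDH18A1 ranged from 53.8 to 64.6 FPKM, with a log2 fold change of -0.07 (95% interval -0.24 to 0.10). With 1 library left out it ran from -0.14 to -0.0074, the former without control replicate 1 at an unadjusted p of 0.0317 in limma. CTH, which makes cysteine from cystathionine, ranged from 2.46 to 3.07 FPKM, with a log2 fold change of 0.07 (95% interval -0.16 to 0.30, and 0.0019 to 0.13 with 1 library left out).

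The other 3 genes of synthesis were at or close to 0. ASNS, asparagine synthetase and a classical ATF4 target with the element shown above, was listed at 0.191, 0.126 and 0.231 FPKM in control and at 0.101, 0.189 and 0.148 FPKM in I3, which correspond to 78 reads in all 6 libraries. This level is uncertain: 84.3% of the principal transcript of ASNS is shared, on the same strand, with the annotated gene AC079781.5, which was itself at 0.128 to 0.264 FPKM, and how reads of shared exons were counted is not stated in the sources used here. PYCR1, which completes proline synthesis in mitochondria, was at 0.0196 to 0.175 FPKM, or 30 reads in all. CBS, which starts the conversion of homocysteine to cysteine, had 3 reads in all, each in control replicate 3. CBS has a near-identical copy, CBSL, with 1 read, so its level is uncertain as well. The ratio of rebuilt reads per depth, I3 over control, was 0.801 for ASNS (95% interval 0.498 to 1.28) and 1.48 for PYCR1 (0.673 to 3.36), and these intervals cover counting error only. Both intervals include 1, so no difference between the groups was seen, and CBS had too few reads for a comparison.

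The one-carbon enzymes had a median log2 fold change of -0.07 (-0.12 to -0.04 with 1 library left out). MTHFD2, the mitochondrial dehydrogenase and cyclohydrolase of the folate cycle, was at 26.0, 25.8 and 25.1 FPKM in control and at 24.8, 26.1 and 26.9 FPKM in I3. The I3 values lay on both sides of the control values, and the highest library was only 1.08 times the lowest. Its log2 fold change was 0.02 (95% interval -0.11 to 0.14), the SD within groups being at the 4.99 percentile of all tested genes. Exons of genes on the other strand (SLC4A5 and AC006030.1) cover 33.2% of the exon bases of MTHFD2. MTHFD1L, which releases formate from mitochondria, was at 17.0, 22.2 and 21.8 FPKM in control and at 17.0, 18.6 and 16.4 FPKM in I3. Control replicate 1 sat with the I3 libraries while the other 2 controls were higher. The log2 fold change was -0.22 (SE 0.109, 95% interval -0.47 to 0.04, unadjusted p = 0.0851 in limma), and without control replicate 1 it was -0.34 with an unadjusted p of 0.00252. In that limma fit no member had an adjusted p below 0.378, and 3.66% of all tested genes were lower at an unadjusted p under 0.05.

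SHMT2, the mitochondrial serine hydroxymethyltransferase, ranged from 31.8 to 36.3 FPKM and its cytosolic counterpart SHMT1 from 2.34 to 3.28 FPKM. SHMT2 was 12.2 times SHMT1 on average (11.1 to 13.6 over the libraries), or 7.87 times per base of the principal transcripts. MTHFD1, the trifunctional enzyme of the cytosol, ranged from 18.6 to 22.8 FPKM. MTHFD1L stood at 0.916, 1.01 and 0.956 of MTHFD1 in the control libraries and at 0.845, 0.854 and 0.764 of it in the I3 libraries. These ratios did not overlap, as was the case for 1 of the 12 ratios examined. Among single genes, 5.06% of all tested had no overlap with I3 higher and 4.64% with I3 lower. No such share was computed for ratios. The direction of the comparison between arms depended on gene length for MTHFD2, which was 1.23 times MTHFD1 per base of all exons but 0.448 times per base of the principal transcript. The same held for PSPH against PHGDH, at 1.68 and 0.598. Since the length is fixed for a gene, it does not alter a ratio between groups.

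**Figure D5:**
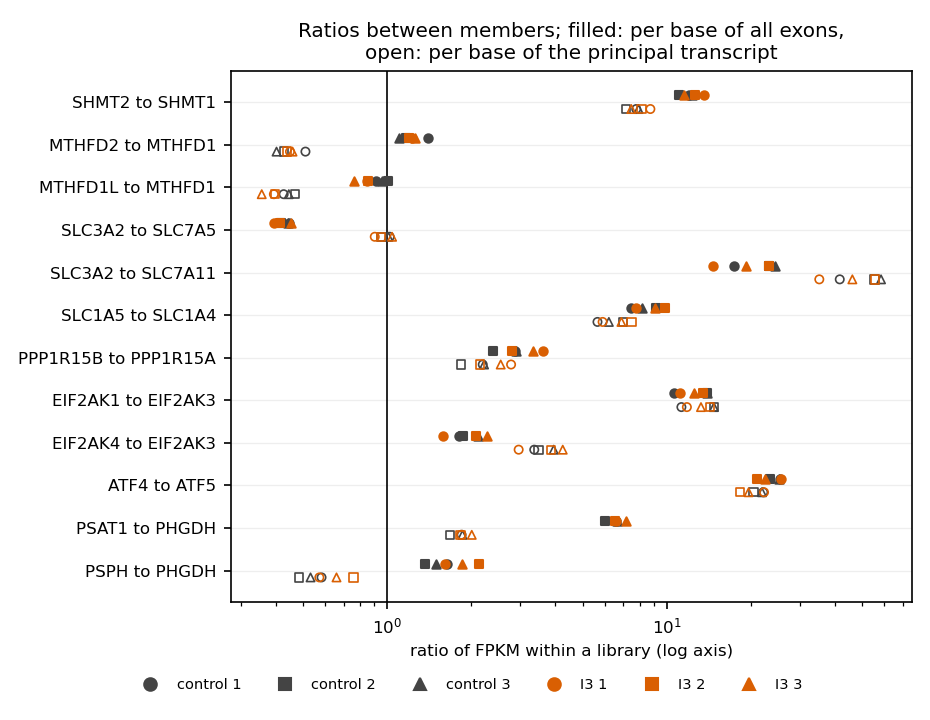
Ratio of FPKM between pairs of genes within each library (log axis) in 3 control (grey) and 3 I3 (orange) libraries, with filled symbols for the deposited FPKM and open symbols after rescaling to the length of the principal transcript. The line marks a ratio of 1. The pairs MTHFD2 to MTHFD1 and PSPH to PHGDH change sides of the line with the length used.

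Among the amino acid transporters the median log2 fold change was -0.09 (-0.13 to -0.03 with 1 library left out). SLC3A2 (chr11:62856102-62888875, plus strand), the heavy chain CD98 that brings several light chains to the membrane, was at 20.99, 22.9 and 22.5 FPKM in control and at 20.1, 20.2 and 20.1 FPKM in I3. The 3 I3 libraries were nearly equal and lay below all controls. The difference was small, 22.2 ± 1.02 FPKM against 20.1 ± 0.0519 FPKM (SD, n = 3 each), and the log2 fold change was -0.13 (SE 0.056, 95% interval -0.26 to -0.0026). The unadjusted p in limma was 0.0466 and the adjusted p 0.998, while the two-sided exact permutation test gave p = 0.1. The call at an unadjusted p was absent with voom, at a minimum of 5 FPKM, after TPM scaling or quantile normalization and in a fit without trend, and also on leaving out any 1 of control replicate 2, control replicate 3 and each I3 replicate.

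SLC7A11 (xCT), the light chain that imports cystine with SLC3A2, was at 1.21, 0.990 and 0.924 FPKM in control and at 1.37, 0.868 and 1.04 FPKM in I3. Replicate 1 was the highest library in both groups, and the I3 values spanned the control values. The log2 fold change was 0.04 (95% interval -0.34 to 0.43). SLC7A5 (LAT1), the light chain for large neutral amino acids, was far more abundant, at 44.1 to 54.9 FPKM. SLC3A2 was 20.4 times SLC7A11 (14.7 to 24.4) and 0.428 times SLC7A5 (0.394 to 0.455), or 48.8 and 0.981 times per base of the principal transcripts. SLC1A5 ranged from 47.5 to 52.5 FPKM and was 8.58 times SLC1A4, a serine and alanine carrier at 5.17 to 6.84 FPKM. Their log2 fold changes were -0.05 (95% interval -0.18 to 0.07) and -0.14 (95% interval -0.41 to 0.12). With 1 library left out they ran from -0.08 to -0.01 and from -0.25 to -0.08, and SLC1A4 was at an unadjusted p under 0.05 without I3 replicate 1.

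Of the 8 genes with the element in a start window, 7 were tested. SLC3A2 was the 1 of them at an unadjusted p under 0.05, beside 2.85% lower and 2.08% higher of all tested genes, and the log2 fold changes ran from -0.39 in CHAC1 to 0.09 in PPP1R15B. The other 6 had intervals that included 0.

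Further genes of the pathway were read from 6 lists, of which 103 genes were tested. Their median log2 fold change was -0.02 (-0.03 to -0.00027 with 1 library left out), and 1 gene was higher at an unadjusted p under 0.05 and 5 were lower, beside 2.08% and 2.85% of all tested genes, and limma called 0 at the adjusted p, as did voom. Among 16 other genes of eIF2 signalling, OMA1, the mitochondrial protease that relays mitochondrial stress to the pathway, was the gene that was higher. It was at 3.18, 3.25 and 2.92 FPKM in control and at 3.55, 3.82 and 3.65 FPKM in I3, with a log2 fold change of 0.21 (95% interval 0.02 to 0.39, unadjusted p = 0.0316, adjusted p = 0.984 in limma). The groups did not overlap, but the call at an unadjusted p was absent after GC correction, with voom and on leaving out control replicate 3 or any 1 I3 replicate. IMPACT, which restrains GCN2, was next in this list with a log2 fold change of 0.14 (95% interval -0.01 to 0.29).

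The list of ATF4 partners and other response genes had 22 tested genes, of which 4 were lower at an unadjusted p and 0 higher, beside 2.85% and 2.08% of all tested genes. They were CEBPD and CEBPB, C/EBP factors that can pair with ATF4, RAB32, a small GTPase of mitochondria and melanosomes, and HERPUD1, which acts in the degradation of misfolded protein. CEBPD was at 36.1, 34.9 and 33.8 FPKM in control and at 28.6, 17.8 and 11.8 FPKM in I3, with a log2 fold change of -0.92 (95% interval -1.56 to -0.29, adjusted p = 0.812 in limma), or -1.24 to -0.62 with 1 library left out. The control libraries were close together and the I3 libraries wide apart. CEBPB was at 5.64, 6.09 and 6.63 FPKM in control and at 4.96, 3.82 and 2.39 FPKM in I3 (log2 fold change -0.69, 95% interval -1.20 to -0.19, adjusted p = 0.845), or -0.90 to -0.44 with 1 library left out. HERPUD1 and RAB32, named after their values were seen, had log2 fold changes of -0.19 and -0.41, and their calls were absent in 7 and 4 of the other fits. The control and I3 values of RAB32 overlapped.

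None of the 20 cytosolic aminoacyl-tRNA synthetases, which charge tRNAs and include many ATF4 targets, was at an unadjusted p under 0.05. Of all tested genes 2.08% were higher and 2.85% lower at that p. SARS1, the seryl-tRNA synthetase, came nearest, at 23.7, 24.1 and 24.7 FPKM in control and at 22.4, 22.7 and 22.1 FPKM in I3 (log2 fold change -0.11, 95% interval -0.22 to 0.01). GARS1, the glycyl-tRNA synthetase, followed with -0.06 (95% interval -0.18 to 0.06). All 20 had a 95% interval inside ±0.58.

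Of 17 tested genes of folate metabolism and glycine cleavage, 0 were at an unadjusted p under 0.05 in limma. The shares of all tested genes were 2.08% higher and 2.85% lower. The nearest were MTR, methionine synthase, with a log2 fold change of 0.13 (unadjusted p = 0.0522) and SDSL, a serine dehydratase-like enzyme, with -0.29 (unadjusted p = 0.0731). SDSL was at 3.12, 2.18 and 2.48 FPKM in control and at 2.13, 1.75 and 2.18 FPKM in I3. Its control replicate 1 stood high, and the groups overlapped. Of 15 genes of proline, glutamine and glutathione metabolism, 1 was lower and 0 higher at an unadjusted p, beside 2.85% and 2.08% of all tested genes. This was GCLM, the modifier subunit of the enzyme that starts glutathione synthesis, at 2.49, 2.68 and 2.71 FPKM in control and at 1.91, 2.05 and 2.23 FPKM in I3. The I3 values were all below the control values, with a log2 fold change of -0.29 (95% interval -0.50 to -0.07, adjusted p = 0.860 in limma), and it was not at an unadjusted p under 0.05 without control replicate 3 or without I3 replicate 1. MPST, which handles sulfur from cysteine, had -0.18 (95% interval -0.38 to 0.03).

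Of 13 other amino acid transporters 0 were at an unadjusted p under 0.05 in limma, beside 2.08% higher and 2.85% lower of all tested genes. SLC7A6, a light chain that exchanges arginine and leucine, had a log2 fold change of 0.13 (95% interval -0.08 to 0.33), with 55.6% of its exon bases under genes of the other strand. It was at 3.21, 3.49 and 3.85 FPKM in control and at 4.08, 3.86 and 3.69 FPKM in I3. The groups overlapped, and control replicate 1 was the lowest library. SLC36A4, a carrier of proline and tryptophan, had 0.19 (95% interval -0.29 to 0.67). It was at 2.53, 1.28 and 1.49 FPKM in control and at 2.21, 1.72 and 2.13 FPKM in I3. Control replicate 1 was its highest library and stood apart from the other controls.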

How the data were processed

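The authors deposited 1 FPKM value per gene and library, without read counts. The submitters' processing notes name hg38, Trimmomatic, HISAT2, Cufflinks and HTSeq, whose roles and versions, like the annotation, are not stated in the sources used here. Libraries were made from polyadenylated RNA with a stranded kit. Gene identifiers (29703 of 29810) were matched to GENCODE 29, and FPKM times exon length gave whole reads, within 0.1 read, for 95.8% of genes above 0 with a length, from which the depth was taken. All 6 value columns were used.

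Groups followed the labels. Genes were kept at a mean FPKM of 0.5 or more (12960), and log2(FPKM + 0.5) was tested in limma 3.58.1 (R 4.3.3; lmFit, eBayes with trend), two-sided, with Benjamini-Hochberg adjustment over all genes and no covariates, with thresholds of 0.05 for the adjusted p and 0.58 for the log2 fold change. The script was tested on simulated data. Single genes had two-sided exact permutation tests (smallest p 0.1). Python 3.11.15, pandas 2.3.3, scipy 1.17.1 and matplotlib 3.10.9 were used.

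The members and the lists were chosen with earlier results of these data known. The genes described in full were ATF4, DDIT3, ASNS, PHGDH, MTHFD2, SLC7A11, the 8 members with the smallest unadjusted p and every member called at an unadjusted p, with the 3 highest, the 3 lowest, the pairs of each ratio, and the 2 genes with the smallest p in each further list. Alternatives were other pseudocounts, minimums and scalings, no trend, a replicate block, a GC correction (lowess, span 0.3), each library left out and voom on rebuilt reads.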

Additional observations from a re-analysis of the deposited data

How the results depend on the processing

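No member was called at an adjusted p in any of the 19 other fits, and the smallest adjusted p of a member was 0.378 (limma, without control replicate 1). The median of the members lay between -0.09 and -0.04 in all of them. Members lower at an unadjusted p (1) numbered 0 at a minimum of 5 FPKM, after TPM scaling, quantile normalization or without trend (beside 2.38% to 3.36% of all tested genes). They numbered 2 after GC correction (ATF4 and SLC3A2, beside 3.5%) or with voom (MTHFD1L and PHGDH, beside 2.72%). With 1 library left out they numbered 0 to 3 (beside 1.84% to 3.66%). Members higher (0) numbered 0 to 2 with 1 library left out (beside 1.51% to 7.3% of all tested genes). The 2 were EIF2S1 and PSPH without control replicate 1, where 7.3% of all tested genes were higher. Members whose I3 values all lay below control (3) numbered 5 after quantile normalization (beside 4.82%) and 3 to 10 with 1 library left out (beside 6.85% to 12.1%), and those above (0) numbered 0 to 2 (beside 8.16% to 18.9%). The median of the further lists was -0.00058 after quantile normalization. Their genes that were higher (1) numbered 3 with no minimum (beside 2.05% of all tested genes) or quantile normalization (1.87%) and 2 after TPM scaling (2.49%). They numbered 0 at 5 FPKM (1.19%), after GC correction (2.38%) or with voom (2.15%). With 1 library left out they numbered 0 to 10 (beside 1.51% to 7.3%), the 10 without control replicate 1, where 7.3% of all tested genes were higher. Those lower (5) numbered 2 at 5 FPKM (beside 3.36%), 4 with voom (2.72%), 6 with no minimum (1.85%) or quantile normalization (3.11%), 7 after GC correction (3.5%) and 2 to 5 with 1 library left out (1.84% to 3.66%). The sign of SLC7A11 turned to -0.00019 after quantile normalization and -0.028 after GC correction, and it ran from -0.081 to 0.146 with 1 library left out. That of MTHFD2 turned to -0.016 after GC correction, with -0.0081 to 0.048 with 1 library left out, and DDIT3 ran from -0.158 to 0.063. The causes were not tested. Members with an element in a window (8) numbered 5 for TGATGCAA. The ratios per principal transcript were added after the data had been seen.

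The labels do not say whether samples of the same replicate number were paired. Samples of the same number deviated together with r of 0.06, 0.15 and -0.02, and control replicates 1 and 3 each correlated best with another number. These values cannot decide on pairing, since differences between libraries, as in GC content, enter them too. With the replicate block, 4 members were lower at an unadjusted p (ATF4, CHAC1, SLC3A2 and TRIB3) beside 3.8% of all tested genes, and 3 genes of the further lists were higher, beside 2.8%, and 7 lower. With the replicate block and GC correction together, 5 members and 8 genes of the further lists were lower, beside 4.32% of all tested genes, and SLC7A11 was at -0.028 and MTHFD2 at -0.016.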
